A study of Rattus norvegicus with 6 samples.

Results

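The genes described here are 8 members of the Notch pathway: the receptors Notch1, Notch2 and Notch3, the ligands Jag1 and Dll1, and the target genes Hes1, Hey1 and Heyl. They were chosen by symbol from the combined table of raw counts, which holds 20264 gene rows. Of the 8 genes, 7 had a row under their symbol, 6 passed the filter on low counts and were tested, and Hey1 was not analysed here. RNA-seq libraries were made from primary nucleus pulposus cells (NPCs) of wild type male Sprague-Dawley rats, the cells of the soft core of the intervertebral disc, taken here from tail discs and grown in culture with serum. All 6 cultures were treated with tert-butyl hydroperoxide (TBHP), an oxidant used to bring on senescence. The TBHP group (n = 3) received nothing further, and the TBHP+FGF21 group (n = 3) also received recombinant FGF21, a secreted hormone of the fibroblast growth factor family. No library of cells without TBHP was analysed here. The treatment labels name FGF21 for replicate 1 of the TBHP+FGF21 group, FGF22 for replicate 2 and FGF23 for replicate 3, while the series describes a single FGF21 group, and the titles were followed. Each group is described as biological replicates, but it is not stated whether the cultures came from separate animals.

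Notch signalling passes between touching cells. A ligand of the Jagged or Delta-like family on 1 cell binds a Notch receptor on its neighbour, the receptor is cut first by an ADAM protease and then inside the membrane by gamma-secretase, and the freed intracellular part joins the DNA-binding protein Rbpj and a Mastermind-like (Maml) coactivator to switch on genes of the Hes and Hey families, which encode transcriptional repressors. In the intervertebral disc the pathway is known for its response to hypoxia and to inflammatory cytokines. In bulk RNA, fewer cells of a kind and less RNA per cell cannot be told apart.

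Hes1 is the best known direct target of the pathway, and the 250 bases before its start are shown with matches to the core that Rbpj recognises. TGGGAA, the core of the Rbpj motif, is in capitals, searched on both strands, so that TTCCCA is a match on the opposite strand. The Dll1 window is shown because it was the only other member with a match, and the Notch3 window because Notch3 had the widest difference between the groups. The sequences are from RefSeq (GRCr8), which held an entry for all 7 members in the table. They lie on the minus strand at chr11:84213046-84213295 for Hes1, chr1:64993275-64993524 for Dll1 and chr7:11834586-11834835 for Notch3, and each is written 5′ to 3′ towards the start of the gene.
Hes1: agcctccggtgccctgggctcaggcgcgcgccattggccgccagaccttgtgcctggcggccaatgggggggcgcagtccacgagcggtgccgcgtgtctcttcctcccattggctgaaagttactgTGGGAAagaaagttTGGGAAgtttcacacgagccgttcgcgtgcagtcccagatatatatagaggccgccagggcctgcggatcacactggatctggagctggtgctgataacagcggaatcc
Dll1: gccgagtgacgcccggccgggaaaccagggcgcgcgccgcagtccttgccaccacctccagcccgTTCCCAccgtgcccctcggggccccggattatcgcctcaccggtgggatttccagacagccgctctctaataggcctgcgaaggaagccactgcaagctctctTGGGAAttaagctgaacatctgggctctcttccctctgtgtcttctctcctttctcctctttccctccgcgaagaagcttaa
Notch3: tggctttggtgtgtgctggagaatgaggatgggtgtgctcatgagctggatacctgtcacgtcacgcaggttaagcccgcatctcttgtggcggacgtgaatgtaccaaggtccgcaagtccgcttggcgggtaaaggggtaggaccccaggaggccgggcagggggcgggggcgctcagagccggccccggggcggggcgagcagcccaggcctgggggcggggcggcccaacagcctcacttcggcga
In Hes1, both matches were on the strand of the gene, at 123 to 118 and at 109 to 104 bases before the start. In Dll1, 1 match was on the opposite strand at 185 to 180 bases before the start and the other on the strand of the gene at 82 to 77 bases. Such a 6-base core is common. It was found in 22.1% of the 33469 promoter windows of this length, and at least 2 matches were found in 2.71%. The longer form GTGGGAA had only 1 match in Hes1 and 1 in Dll1, and was found in 5.27% of all windows. Binding of Rbpj was not tested. No match was found in the windows of Notch1, Notch2, Notch3, Jag1 and Heyl, which says only that these letters are not there.

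The libraries held between 18277732 and 22426190 counts in genes. Not every library was closest to its own group. Across the 11426 genes tested, TBHP+FGF21 replicate 2 had a mean Spearman's rho of 0.996 with the TBHP libraries and of 0.990 with the other libraries of its own group, while the other libraries of its group correlated more closely with their own group than with the TBHP group. TBHP replicate 3 also had a slightly higher mean rho with the TBHP+FGF21 libraries (0.994) than with its own group (0.993). Values without these libraries are given beside the genes that depend on them. Markers of notochordal cells, Tbxt, Shh and Noto, had no count in any library, whereas Acan, the main proteoglycan of the disc, was between 2506 and 4355 CPM (counts scaled to a common library size by TMM) and Pax1, a transcription factor of the sclerotome, between 210.7 and 385 CPM. Of the other nucleus pulposus markers, Col2a1 was at 0.41 to 0.78 CPM, Cd24 at 0.72 to 2.13 CPM and Krt8 at 2.31 to 4.27 CPM. Foxf1 was at 39.8 to 62.1 CPM and Slc2a1 at 354 to 401 CPM. From the annulus fibrosus and fibroblast list, Col1a1 was between 27868 and 42463 CPM, Col3a1 between 3048 and 3367 CPM and Thy1 between 1021 and 1188 CPM. Col1a2 of the same list was at only 0.39 to 0.77 CPM, and Tnmd had no count in any library. The remaining genes of that list had counts in every library. The cause of the low Col1a2 level was not tested. The endothelial genes Cdh5, Kdr, Tie1 and Emcn and the leukocyte and macrophage genes Ptprc, Adgre1, Tyrobp and Mrc1 also had no count in any library. Other genes of these lists did have counts, Egfl7 at 28.3 to 40.1 CPM and Cldn5 at 6.28 to 10.2 CPM among the endothelial genes, and Cd14 at 24.97 to 35.6 CPM and Cd68 at 1.27 to 2.27 CPM among the macrophage genes. Levels are compared here within a gene and not between genes, since no transcript lengths were used.

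Notch3 had the largest difference among the receptors, ligands and targets tested. In the order of replicates 1, 2 and 3, used throughout, its level was 1.96, 2.09 and 2.34 CPM with TBHP alone and 4.12, 2.63 and 5.93 CPM with TBHP and FGF21. The groups did not overlap, but TBHP+FGF21 replicate 2 lay just above the TBHP libraries, and the spread was wider with FGF21. The mean went from 2.13 ± 0.20 CPM (SD, n = 3) without FGF21 to 4.23 ± 1.65 CPM (SD, n = 3) with it, a fold of 1.99 (95% confidence interval 1.30 to 3.03). Its log2 fold change of 0.99 (standard error 0.28) had an unadjusted p of 0.00394 and an adjusted p of 0.553 in edgeR's quasi-likelihood (QL) test, Benjamini-Hochberg adjusted over all genes tested, and so it was not called. These levels rest on 35 to 50 counts per library in the TBHP group and on 55 to 136 in the TBHP+FGF21 group. Counted without strand, as here, Notch3 had 409 counts over all libraries, against 220 and 211 in the columns by strand. Some of its reads were thus left out, although RefSeq's GRCr8 annotation lists no gene that overlaps it. Without TBHP+FGF21 replicate 2, the log2 fold change was 1.25 and the adjusted p 0.00395 by the same test. With any other library left out, this p ranged from 0.244 to 0.982, and over the other alternatives from 0.116 to 0.569.

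Notch3 is best known as the receptor of vascular mural cells (pericytes and smooth muscle), so a list of 9 other mural genes was examined beside it. Of the 8 that could be tested, 2 had an unadjusted p under 0.05 with a higher level in the TBHP+FGF21 group and 2 with a lower level, against 4.63% and 4.29% of all genes. Abcc9 and Kcnj8, which encode subunits of an ATP-sensitive potassium channel, had log2 fold changes of 0.49 and 0.53. Acta2, which encodes smooth muscle actin, and Mcam, an adhesion molecule, were each at -0.46. The summed level of the list was between 3007 and 3294 CPM in the TBHP group and between 2707 and 3235 CPM in the TBHP+FGF21 group. Rgs5, a defining marker of pericytes, had no count in the TBHP group and at most 0.24 CPM in the TBHP+FGF21 group. The other genes of the list had counts in every library. Acta2 was at 687 to 1439 CPM, Cspg4 at 1111 to 1279 CPM, Pdgfrb at 305 to 390 CPM and Myh11 at 5.98 to 7.13 CPM. Most of the summed level was Acta2 and Cspg4. The part of mural cells in the Notch3 values was not tested.

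Notch1, the receptor with the widest roles across tissues, followed a like order of libraries. It was at 2.63, 2.40 and 3.98 CPM in the TBHP group and at 4.50, 2.63 and 6.19 CPM in the TBHP+FGF21 group. Here the groups overlapped, since TBHP+FGF21 replicate 2 lay among the TBHP libraries and the other 2 above them all. Its mean was 3.00 ± 0.86 CPM (SD, n = 3) against 4.44 ± 1.78 CPM (SD, n = 3) with FGF21. The log2 fold change of 0.57 (standard error 0.30) had an adjusted p of 0.560 by edgeR's QL test. Without TBHP+FGF21 replicate 2 it was 0.84 (adjusted p = 0.0398 by edgeR), a p that ranged from 0.284 to 0.982 with any other library left out and from 0.267 to 0.644 over the other alternatives. Without TBHP+FGF21 replicate 3 it was 0.25, and without TBHP replicate 3, which was the highest TBHP library, it was 0.84.

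Notch2 stayed close to its TBHP level. It was at 291, 273 and 330.4 CPM in the TBHP group and at 328, 309 and 281 CPM in the TBHP+FGF21 group, so the groups overlapped throughout. These values rest on 5212 to 7049 counts per library, the deepest among the members. The log2 fold change was 0.04 (standard error 0.10), with a 95% confidence interval from -0.19 to 0.26, and its adjusted p was 0.904 by edgeR's QL test. Without TBHP replicate 3 the log2 fold change was 0.13. A change of Notch2 of the size measured for Notch3 lies outside this interval. Notch4, the receptor known from endothelium and taken from the wider list, was at 3.64 ± 0.39 CPM (SD, n = 3) and 3.51 ± 0.20 CPM (SD, n = 3), a log2 fold change of -0.05.

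**Figure D1:**
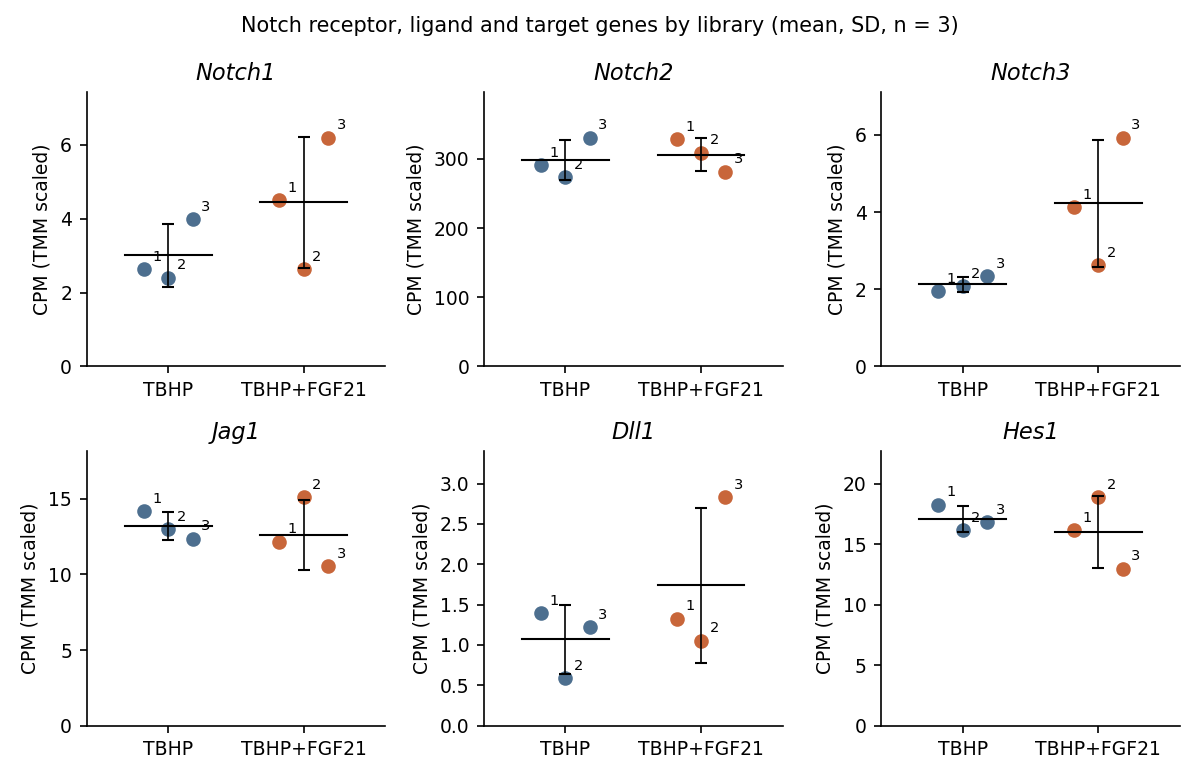
CPM after TMM scaling of the 6 genes tested, by group. Points are libraries with their replicate numbers, and the lines and bars are the mean and SD (n = 3). For Notch3 all TBHP+FGF21 libraries lie above the TBHP libraries, while the groups overlap for the other genes, and TBHP+FGF21 replicate 2 is the lowest of its group for Notch1, Notch3 and Dll1 and the highest for Jag1 and Hes1.

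Of the ligands, Jag1, a Jagged protein that signals to neighbouring cells in many connective tissues, was measured with 242 to 316 counts per library. It was at 14.2, 13.0 and 12.4 CPM in the TBHP group and at 12.2, 15.1 and 10.6 CPM in the TBHP+FGF21 group. The highest and the lowest level were those of replicates 2 and 3 with FGF21. Its log2 fold change was -0.06 (standard error 0.15), with a 95% confidence interval from -0.39 to 0.26 and an adjusted p of 0.892 by edgeR's QL test. It was -0.21 without TBHP+FGF21 replicate 2 (adjusted p = 0.416 by edgeR) and 0.058 without TBHP+FGF21 replicate 3.

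Dll1, the Delta-like ligand known from somite formation, was measured with few counts. Its level was 1.40, 0.59 and 1.22 CPM in the TBHP group and 1.33, 1.05 and 2.83 CPM in the TBHP+FGF21 group. A single library, TBHP+FGF21 replicate 3, stood above all others, and the remaining 5 overlapped. Its 65 counts had an exact 95% Poisson interval from 50.2 to 82.8, and the 13 counts of TBHP replicate 2, the lowest library, one from 6.92 to 22.2, both for counting error only. The log2 fold change of 0.73 (standard error 0.42) had an adjusted p of 0.572 by edgeR's QL test. Without TBHP+FGF21 replicate 3 it was 0.18, and it was 0.42 when TBHP replicate 2 was dropped and 1.00 when TBHP+FGF21 replicate 2 was dropped (adjusted p = 0.117 by edgeR). In RefSeq's GRCr8 annotation, Dll1 overlaps Fam120b. Reads were counted without strand, so reads of overlapping genes may be mixed or left out. Dll1 had 179 counts over all libraries this way, against 99 and 81 in the columns by strand, so little was left out for want of strand.

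Among the targets, Hes1 had 298 to 395 counts per library. Its level was 18.3, 16.1 and 16.8 CPM in the TBHP group and 16.2, 18.9 and 13.0 CPM in the TBHP+FGF21 group. As for Jag1, the highest and the lowest library both came from the TBHP+FGF21 group, with replicate 2 highest and replicate 3 lowest. The log2 fold change was -0.09 (standard error 0.14), with a 95% confidence interval from -0.41 to 0.22 and an adjusted p of 0.827 by edgeR's QL test. Leaving out TBHP+FGF21 replicate 2 gave -0.22 (adjusted p = 0.362 by edgeR), and leaving out TBHP+FGF21 replicate 3 gave 0.046. Hes1 thus differed by less than the spread within the TBHP+FGF21 group, which was 2.96 CPM (SD, n = 3). The libraries with the highest Notch3 and Notch1, replicates 1 and 3 of the TBHP+FGF21 group, had lower Hes1 than replicate 2 of that group. For replicates 1 and 2, the exact 95% Poisson intervals of the Hes1 counts overlapped, 306 to 379 and 357 to 436. Replicate 2 was also the closest of its group to the TBHP libraries over all genes tested, so this order is given as values only.

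Heyl, a Hey-family target best known from mural cells and neurons, was at the limit of detection. It had 1 count each in replicates 1 and 3 of the TBHP+FGF21 group and 0 in the other 4 libraries. For a count of 0 the floor used here was 3 counts, which at this depth is 0.131 to 0.168 CPM. The exact 95% Poisson interval of a count of 0 is a little wider and reaches 3.69 counts, and that of a count of 1 reaches 5.57. No fold is given, since every library lies under the floor of 3 counts.

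Against the whole table, the members gave few calls. None of the 6 tested had an adjusted p under 0.05, a threshold passed by 0.00875% of all genes tested, or 1 gene, Sirt1. Its counts in the combined table are not those of any gene in the per-sample files. At an unadjusted p under 0.05 there was 1 of the 6, Notch3, against 8.92% of all genes, and Notch3 was also the only member whose groups did not overlap, against 9.90% of all genes. The study's own threshold, a log2 fold change beyond 1 in size at p under 0.05 without adjustment, was met by 0.534% of all genes and by no member, Notch3 lying just below it. Notch3 did meet it under 5 of the alternatives, with a log2 fold change of 1.17 from the column 4 counts of the per-sample files, 1.003 without a filter on low counts, 1.07 without TBHP replicate 3, 1.02 without TBHP+FGF21 replicate 1 and 1.25 without TBHP+FGF21 replicate 2. In these fits 0.594%, 0.981%, 0.899%, 0.520% and 1.73% of all genes met it, in the same order. The median log2 fold change of the 6 was 0.30, with 4 above 0 and 2 below. Of all genes tested, whose median was -0.01, 48.9% were above 0. Without TBHP+FGF21 replicate 2, Notch1 and Notch3 had an adjusted p under 0.05 by edgeR's QL test, 2 of 6, against 7.50% of all genes in that fit.

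**Figure D2:**
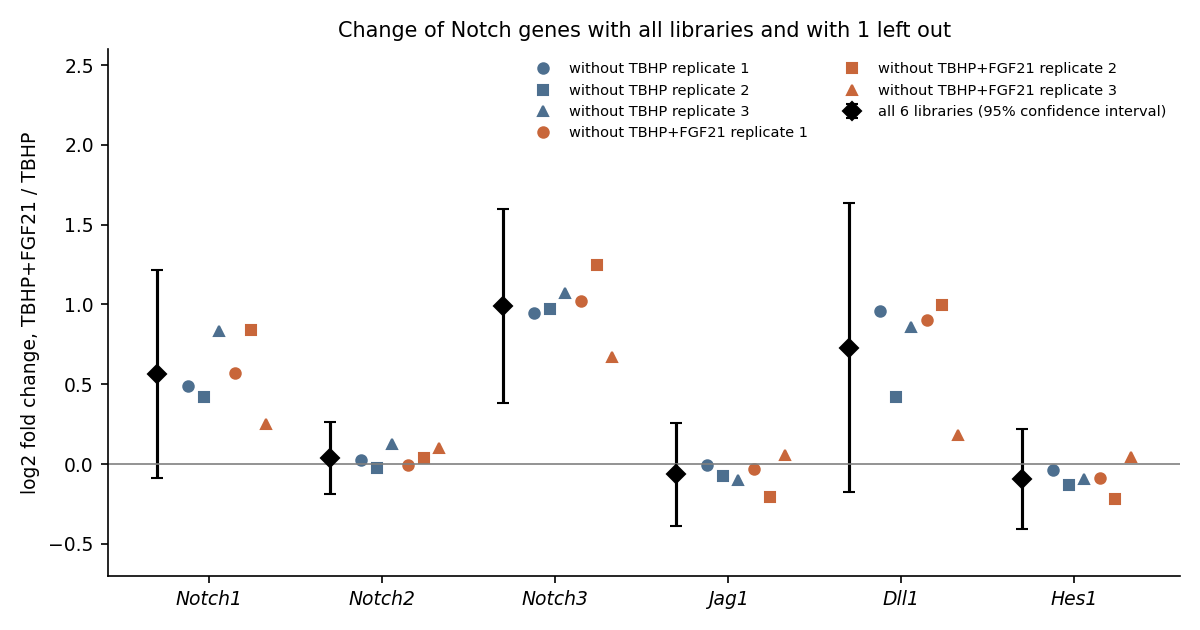
log2 fold change of TBHP+FGF21 against TBHP for the 6 genes tested. Black diamonds are the values with all 6 libraries, with 95% confidence intervals, and coloured points are the values with 1 library left out. With 1 library left out, Notch3 lies between 0.67 and 1.25, Notch1 between 0.25 and 0.84 and Dll1 between 0.18 and 1.00, all above 0. The confidence intervals of Notch1 and Dll1 reach below 0, and that of Notch3 does not. Notch2, Jag1 and Hes1 lie on either side of 0.

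The other genes of the pathway were taken from a list of 78, of which 75 were in the table and 66 passed the filter on low counts. The median of their log2 fold changes was 0.06, with 41 above 0 and 25 below. None had an adjusted p under 0.05. At an unadjusted p under 0.05 there were 7 of the 66, or 10.6% against 8.92% of all genes, a share near that of the whole table. Of these, 3 were higher with FGF21 and 4 were lower, against 4.63% and 4.29% of all genes in each direction.

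The 3 that were higher were Maml1, Maml2 and Aak1. Maml1 and Maml2 encode Mastermind-like coactivators, which bind the Notch and Rbpj complex. Maml2 was at 11.7, 9.93 and 14.3 CPM in the TBHP group and at 16.4, 15.2 and 18.1 CPM in the TBHP+FGF21 group. Every TBHP+FGF21 library lay above every TBHP library, replicate 2 included. Its log2 fold change was 0.47 (standard error 0.15, unadjusted p = 0.00790 and adjusted p = 0.553 by edgeR's QL test), and the adjusted p was 0.0424 without TBHP+FGF21 replicate 2 and at least 0.127 under every other alternative. Maml1 was at 43.3 ± 3.69 CPM (SD, n = 3) and 53.2 ± 4.75 CPM (SD, n = 3), a log2 fold change of 0.30 with groups that did not overlap (unadjusted p = 0.0141 by edgeR). The other members of the activation complex were closer to 0. Rbpj, the DNA-binding partner, was at -0.09, and the coactivators Kat2a, Kat2b, Crebbp and Snw1 were between -0.22 and 0.11. Snw1 overlaps Slirp in RefSeq's GRCr8 annotation. It had 2569 counts without strand over all libraries, against 2108 and 2077 in the columns by strand, so reads there were left out. Aak1, a kinase of clathrin-mediated endocytosis, was at 17.3 ± 1.38 CPM (SD, n = 3) and 21.2 ± 1.34 CPM (SD, n = 3), a log2 fold change of 0.30 (unadjusted p = 0.0242 by edgeR). It was the only gene under 0.05 of the 14 ubiquitin ligases and endocytic regulators tested.

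The 4 that were lower included a pair of genes that Notch activity is known to raise or that belong to the Hes family. Nrarp, a target that also limits Notch signalling, was at 3.69, 5.03 and 3.84 CPM in the TBHP group and at 2.89, 2.30 and 3.23 CPM in the TBHP+FGF21 group. All TBHP+FGF21 libraries lay below all TBHP libraries, and unlike for Notch3, TBHP+FGF21 replicate 2 was the farthest from the TBHP group. The gene had a log2 fold change of -0.58 (standard error 0.21, unadjusted p = 0.0177 and adjusted p = 0.553 by edgeR's QL test). Hes6, an atypical Hes protein known to oppose Hes1, was at 24.0, 20.6 and 18.9 CPM and at 15.9, 18.5 and 15.6 CPM, a log2 fold change of -0.34 (unadjusted p = 0.0197 by edgeR). The gap between its groups was small, from 18.9 in TBHP replicate 3 to 18.5 in TBHP+FGF21 replicate 2. In RefSeq's GRCr8 annotation, Hes6 overlaps LOC134480412, and Maml2 overlaps Ccdc82 and other loci. Maml1, Aak1 and Dner each overlap loci that carry no gene name or are pseudogenes, so reads may be mixed at these genes too. Counts without strand were 2369 for Hes6, against 1115 and 1254 in the columns by strand. They were 6110 for Maml1 (3003 and 3107), 1813 for Maml2 (895 and 918), 2439 for Aak1 (1238 and 1201) and 209 for Dner (102 and 109). Little was thus left out for want of strand.

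Dner, a non-canonical Notch ligand known from neurons, was at 2.07 ± 0.42 CPM (SD, n = 3) and 1.30 ± 0.13 CPM (SD, n = 3), a log2 fold change of -0.66 (unadjusted p = 0.0242 by edgeR) with groups that did not overlap. Psenen, a small subunit of gamma-secretase, was at -0.26 (unadjusted p = 0.0466 by edgeR), with overlapping groups, because TBHP replicate 3 at 40.4 CPM lay below all TBHP+FGF21 libraries. The other 5 gamma-secretase genes tested did not have an unadjusted p under 0.05, and among them Ncstn, its largest subunit, was at 0.20. Adam10 and Adam17, the proteases that make the first cut, were at 0.06 and 0.07, and Furin, which processes the receptor on its way to the surface, at 0.10.

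Further targets did not share a direction. Hey2, a relative of Hey1 and Heyl, was at 0.38 with all TBHP+FGF21 libraries above the TBHP libraries (unadjusted p = 0.0992 by edgeR), whereas Hes7 was at -0.23 and Hes2 at -0.66, each with overlapping groups. Ccnd1 and Myc, which have many other inputs, were at -0.06 and -0.01. Among the 7 glycosyltransferases tested that modify the receptor, log2 fold changes lay between -0.04 and 0.15, with Pofut1 the highest. The 17 corepressors lay between -0.20 and 0.30, and the smallest unadjusted p among them was 0.0566 by edgeR for Spen, which binds Rbpj, at 0.21. Of the remaining ligands, Jag2 was at -0.54 and Dlk2 at -0.03, and Dll3, Dll4, Dlk1 and Cntn1 had too few counts to be tested.

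**Figure D3:**
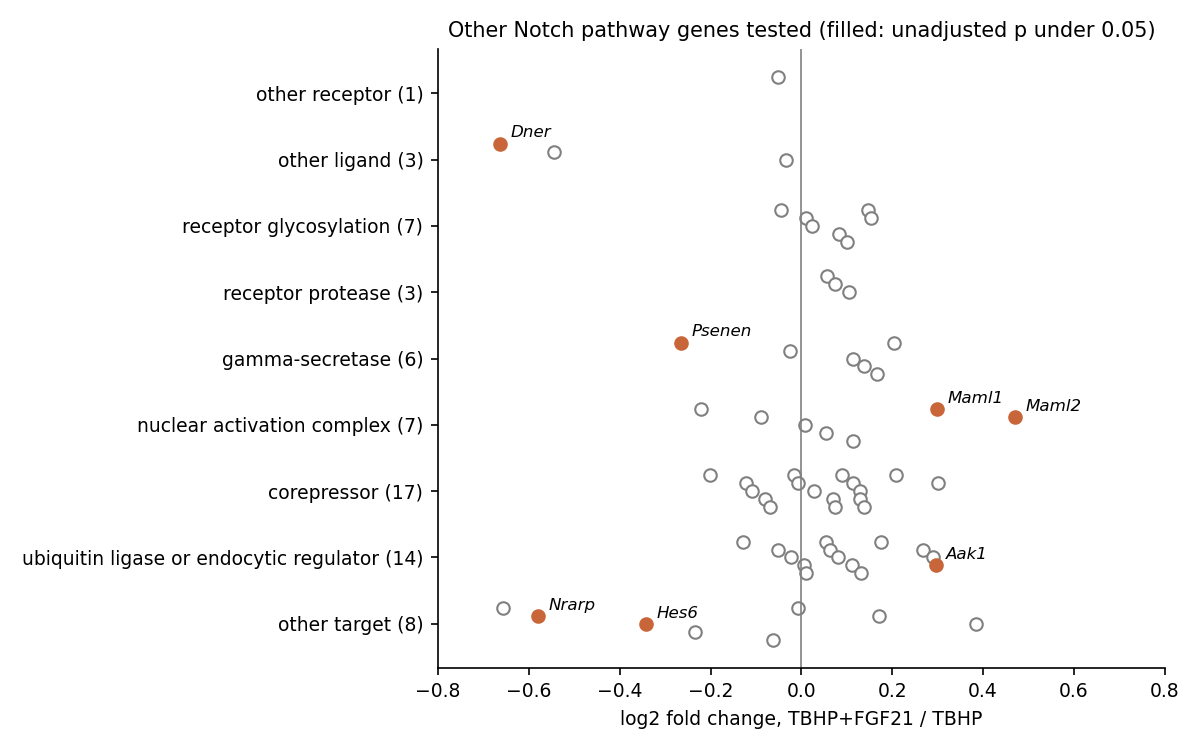
log2 fold change of TBHP+FGF21 against TBHP (x axis) for the 66 other pathway genes tested, by role, with the number of genes in brackets. Filled points have an unadjusted p under 0.05 and are named. They lie on both sides of 0, 3 above and 4 below.

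The libraries did not order these genes in the same way. For Notch1 and Notch3, TBHP+FGF21 replicate 3 was highest, replicate 1 next and replicate 2 close to the TBHP group. Replicate 2 was also the nearest to the TBHP mean of its group for Maml1, Maml2, Aak1, Hes6 and Dner. This was not particular to these genes. Over all genes tested, its mean rho with the TBHP libraries was 0.996, against 0.991 and 0.988 for replicates 1 and 3. How many of all genes had replicate 2 nearest was not counted. For Nrarp replicate 2 was the farthest, at -0.87 on the log2 scale against the TBHP mean, where replicates 1 and 3 were at -0.54 and -0.38.

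**Figure D4:**
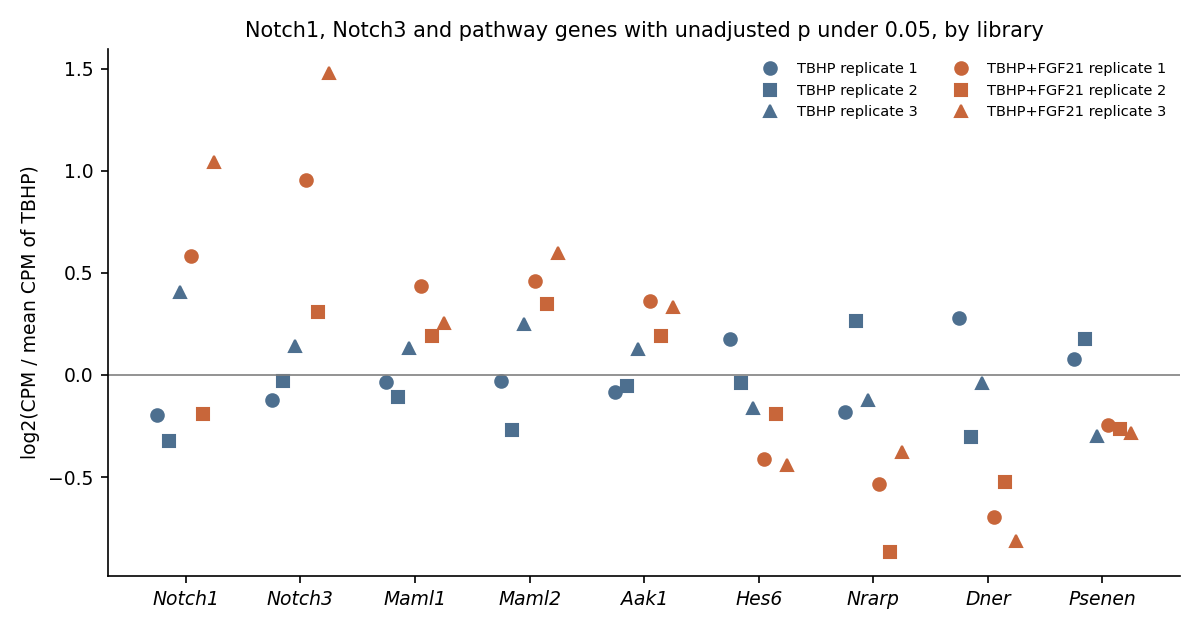
log2 ratio of each library's CPM to the mean CPM of the TBHP group, for Notch1, Notch3 and the 7 other pathway genes with an unadjusted p under 0.05. Blue points are TBHP and orange points TBHP+FGF21 libraries. TBHP+FGF21 replicate 2 (orange squares) lies nearest to 0 of its group for 7 of the 9 genes, and farthest for Nrarp. This library was also the closest of its group to the TBHP libraries over all genes tested.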

How the data were processed

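Libraries of poly-A RNA from rat NPCs (TBHP and TBHP+FGF21, n = 3 each) were grouped by title. The kit was directional, but summed column 3 was 0.977 to 0.986 of summed column 4 (the columns by strand), so strand was not used. The authors deposited raw whole counts per Ensembl gene for each library, and a combined table per gene symbol with values of the class of expected or estimated counts, since 22 of its rows are not whole. The values of these rows were rounded to the nearest whole number. The submitters' processing notes name STAR and featureCounts, and the genome build and annotation are not given in the sources used here. Reads not assigned to a gene (unmapped, 1.24% to 1.40%, multimapping, 6.27% to 7.02%, outside genes, 9.13% to 10.4%, ambiguous, 1.72% to 2.09%) were not used.

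The combined counts were fitted with edgeR 4.0.16 in R 4.3.3 (TMM, filterByExpr with a minimum count of 10 and minimum total of 15, glmQLFit, glmQLFTest, condition only), with Benjamini-Hochberg adjustment over 11426 genes. A change is called at an adjusted p under 0.05. Standard errors are the log2 fold change over the square root of F. CPM is after TMM scaling. The alternatives were the per-sample counts (unstranded, and column 4, 1 of the strand columns), linked to symbols by identical counts (13205 identifiers), DESeq2 1.42.0 (its size factors within edgeR, and its Wald test), limma 3.58.1 (limma-voom, and limma on log2(CPM + 1)), other filters, the replicate number as a block, and leaving out each library. Members and lists were chosen with earlier results of these data known. All members were named, and of the other pathway genes those with an unadjusted p under 0.05 and, in each role without one, the gene with the smallest p. Other genes named were chosen after their values were seen, to describe a role. The wider list overlaps other pathways. Hey1, Maml3, Ep300, Efnb2, Pecam1 and Krt19 were not analysed here. A planned comparison of the receptors' shares per transcript length was not run, because the reference gives gene spans only.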

Additional observations from a re-analysis of the deposited data

How the results depend on the processing

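No library beyond 3 per group supports these values, and counts per library limit Dll1, Notch1, Notch3 and Heyl most. Over the 6 fits that each left out 1 library, the log2 fold change lay between 0.25 and 0.84 for Notch1, -0.023 and 0.13 for Notch2, 0.67 and 1.25 for Notch3, -0.21 and 0.058 for Jag1, 0.18 and 1.00 for Dll1, and -0.22 and 0.046 for Hes1. The sign turned for Notch2 without TBHP replicate 2 (-0.023) and without TBHP+FGF21 replicate 1 (-0.0037), and for Jag1 (0.058) and Hes1 (0.046) without TBHP+FGF21 replicate 3. Notch4 turned to 0.029 without TBHP replicate 1 and to 0.00027 without TBHP+FGF21 replicate 2, in a range from -0.12 to 0.029. With the column 4 counts, which hold about the reads of 1 strand, Jag1 was at 0.019 and Notch4 at 0.20, and the cause was not tested. Members with an adjusted p under 0.05 numbered between 0 and 2, and other pathway genes between 0 and 1, each highest without TBHP+FGF21 replicate 2, where edgeR called 867 of all genes. At an unadjusted p under 0.05 there were between 1 and 3 members and between 3 and 12 other pathway genes with 1 library left out, the 12 without TBHP replicate 3, where 15.3% of all genes passed, and the 3 members without TBHP+FGF21 replicate 2, where 23.6% did. The share of all genes was between 2.92% and 4.41% in the other 4 such fits. Without a filter on low counts, 2 of 7 members were under 0.05 unadjusted, Notch1 joining Notch3, against 9.66% of all genes in that fit. Under the other alternatives no member passed the adjusted threshold. These gave between 0 and 5 calls over the whole table and between 912 and 1599 genes with an unadjusted p under 0.05.

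The replicate numbers were not taken to pair the libraries, since not all correlations of their deviations from the group means exceeded 0.1 (-0.14, 0.27 and 0.18 for replicates 1, 2 and 3), and whether the cultures were paired is not stated. With the replicate block, 2 members (Notch1 and Notch3) and 11 other pathway genes had an unadjusted p under 0.05, against 1599 of all genes, and none of them an adjusted p under 0.05. The block changed no adjusted call among these genes.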

Other observations

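For each member tested, the 2 genes with the most similar values over the 6 libraries were sought among all genes tested, by the root mean square difference of log2 CPM after centring each gene on its own mean. For Notch3 they were Ppl (0.04) and Prdm1 (0.06), on a spread of Notch3 itself of 0.50 on the same scale. For Notch1 they were Npy4r (0.08) and Pde3a (0.09), on a spread of 0.44, and for Dll1 they were Shisa2 and Kcnt1 (both 0.15), on a spread of 0.48. Hes1 was most like Ccne2 (0.03) and Col5a1 (0.04), Jag1 like Armcx5 and Fbxo5 (both 0.03), and Notch2 like Nemf and Bco2 (both 0.03), on spreads of 0.17, 0.16 and 0.10. With 6 libraries and 11426 genes, close neighbours are found for any gene, and these are given as values only.

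Among the nucleus pulposus markers, 3 of the 9 tested had an unadjusted p under 0.05 and a higher level in the TBHP+FGF21 group, namely Acan (log2 fold change 0.40), Sox9 (0.56) and Pax1 (0.54), against 4.63% of all genes, and none of them an adjusted p under 0.05 by edgeR. Other genes of this list lay below 0 without passing that threshold, Krt8, a keratin, at -0.43 (unadjusted p = 0.0516 by edgeR) with groups that did not overlap, Cd24 at -0.55 and Col2a1 at -0.26, both with overlapping groups. Of the 9 annulus fibrosus and fibroblast markers tested, Pdgfra was at 0.39 and Scx, a tendon transcription factor, at -0.39, both with an unadjusted p under 0.05, a threshold passed by 8.92% of all genes in either direction. None of the 2 endothelial and 2 macrophage markers tested was under 0.05 unadjusted. The summed nucleus pulposus markers lay between 3172 and 3617 CPM in the TBHP group and between 3551 and 5246 CPM in the TBHP+FGF21 group, but most of this was Acan alone, at 2506 to 2939 CPM and 2864 to 4355 CPM.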
